A study of Mus musculus with 6 samples.

Results

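Voltage-gated sodium channels are the membrane proteins that open on depolarisation and carry the rising phase of the action potential in neurons and muscle. Each channel is formed by 1 large pore-forming alpha subunit, joined by smaller beta subunits that set its gating and its place in the membrane. The genes described here were 9 alpha subunit genes, Scn1a, Scn2a, Scn3a, Scn4a, Scn7a, Scn8a, Scn9a, Scn10a and Scn11a, out of 21911 protein-coding genes of the nuclear chromosomes in GENCODE mouse release M21. The measurement was trimethylation of lysine 4 of histone H3 (H3K4me3), a histone mark that sits over active and poised promoters. A gene counted as marked if the list had a peak no more than 1 kb from one of its annotated transcript starts. All peaks across the sodium channel cluster of chromosome 2, from Scn3a to Scn7a, were also taken. This gave 117 of the 227418 peaks in the 6 lists, and every one of them lay in the cluster. The genes were chosen by family, but with measured values in view, namely the strong Scn3a promoter peak of Q111SST that Q7SST lacked, so that difference is given as a description.

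The cells were STHdh, conditionally immortalised mouse striatal progenitor lines of C57BL/6 background. There were 6 peak lists, 1 for each condition. Q7SST is wild-type STHdhQ7 given vehicle. Q111SST is STHdhQ111, the mutant line with a homozygous knock-in of an expanded Huntingtin gene, given vehicle. The other 4 lists came from the mutant line given cyproheptadine, loxapine, diacylglycerol kinase inhibitor II (DKI) or meclizine at 10 uM, and all 6 cultures spent 24 h without serum. Wild type and mutant were each a single cell line, so genotype and line cannot be told apart. A single list stood for each condition, so spread between replicates was unknown and no condition was tested against another. The strength of a peak is given as its percentile, the rank of its deposited score among all peaks of its own list, with 100 at the strongest. Lists held 30758 to 45564 peaks (38392 in Q7SST, 40406 in Q111SST). The number of reads behind them was unknown, and an absent peak means only that none was called.

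Of the 9 genes, 2 were marked in Q7SST (Scn1a and Scn2a) and 3 were marked in each of the other 5 lists (these and Scn3a). The share of the 9 genes marked was 22.2% in Q7SST and 33.3% in each other list. Among all protein-coding genes the share marked was 59.9% in Q7SST, 58.4% in Q111SST, 58.6% with meclizine, 58.1% with loxapine, 55.4% with cyproheptadine and 55.8% with DKI. The other 6 sodium channel genes (Scn4a, Scn7a, Scn8a, Scn9a, Scn10a and Scn11a) were marked in none of the 6 lists, against 37.0% of all protein-coding genes. Marking in all 6 lists was found for 2 of the 9 genes, against 53.5% of all protein-coding genes.

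**Figure D1:**
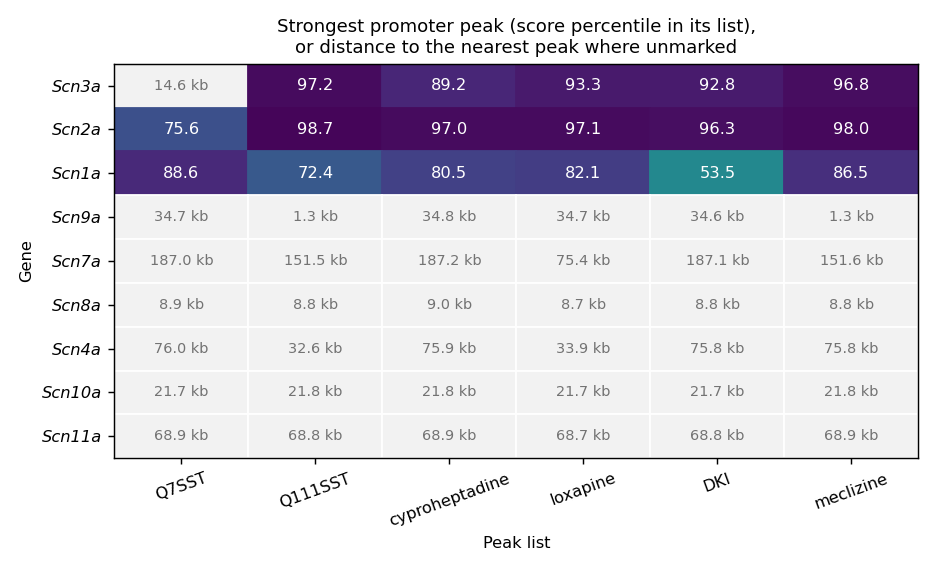
Grid of the 9 sodium channel genes (rows) in the 6 peak lists (columns). Coloured cells give the score percentile of the strongest peak within 1 kb of a start and grey cells give the distance in kb to the nearest peak of an unmarked gene. Scn2a and Scn1a were marked in all 6 lists, Scn3a in every list but Q7SST, and the other 6 genes in none.

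Scn3a encodes Nav1.3, the channel of embryonic neurons, which falls after birth in the rodent brain. The gene lies on the minus strand at chr2:65457118-65567627 (GRCm38) with 4 annotated starts. In Q111SST its promoter peak spanned 1636 bp, at chr2:65565889-65567524, with a score of 186 at percentile 97.2. The same promoter held a peak of score 109 (percentile 89.2) with cyproheptadine, 208 (96.8) with meclizine, 132 (92.8) with DKI and 154 (93.3) with loxapine. All 5 lists of the mutant line thus held a strong peak there, with a median percentile of 93.3 and an SD of 3.28 over these lists, which are different treatments and not replicates. In Q7SST no peak lay within 1 kb of any Scn3a start, and the nearest one was 14648 bp from the start of the non-coding transcript Scn3a-204 and 83541 bp from that of Scn3a-201.

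The Scn3a peak was asymmetric. It began 27 to 62 bp upstream of the Scn3a-201 start and ran 1520 to 1848 bp into the gene, so that nearly all of it covered the first transcribed sequence and not the upstream DNA. The most upstream start, that of Scn3a-202 at position 65567627, lay 73 to 108 bp outside it. A second, weaker peak in the same 5 lists covered the internal start of Scn3a-203 at position 65529404. Its percentile was 48.2 in Q111SST, 27.6 with meclizine, 49.5 with loxapine, 44.3 with cyproheptadine and 30.9 with DKI. Scn3a was therefore marked at both an outer and an inner start in every mutant-line list and at neither in Q7SST.

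Between Q111SST and Q7SST, marking differed for 1 of the 9 sodium channel genes and for 5.67% of all protein-coding genes. The pattern of Scn3a (present in all 5 lists of the mutant line, absent from Q7SST) was shared by 205 protein-coding genes, 0.936% of those examined. Among these 205 genes the median percentile over the 5 lists had a median of 53.5, and Scn3a ranked 3 by this value. The strength of its Q111SST peak was in view when the genes were chosen, so this rank is a description only. The 3 genes of this pattern whose percentiles were most like those of Scn3a, by the mean absolute difference over 5 lists, were Tep1 (2.58 points), Pon3 (2.65 points) and Pctp (3.18 points). Tep1 encodes a protein of the telomerase and vault particles, Pon3 a paraoxonase and Pctp a phosphatidylcholine transfer protein. They lie on chromosomes 14, 6 and 11.

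Scn2a encodes Nav1.2, a main channel of the axon initial segment in young neurons and of unmyelinated axons. The gene is on the plus strand at chr2:65620771-65767447, with its most distal annotated start at position 65620771 and internal starts at 65668686 (Scn2a-209) and 65668765 (Scn2a-205). In all 6 lists the peak covered the internal starts, and the nearest peak to the distal start was 47349 to 47478 bp away. Its score was 100 (percentile 75.6) in Q7SST and 209 (98.7) in Q111SST. With the compounds it was 226 (98.0) for meclizine, 186 (97.1) for loxapine, 148 (97.0) for cyproheptadine and 155 (96.3) for DKI. Q7SST stood 21.5 percentile points below the median of the mutant-line lists and below each of the 5. The SD of those lists was 0.954, taken over different treatments and not replicates. The share of all genes with Q7SST outside their range is not given here, so the gap is described for this gene alone. The Q7SST peak was also the narrowest, at 877 bp against 1016 to 1348 bp, and it stopped 342 bp downstream of the start where the others ran to 574 to 824 bp. On the upstream side the 6 peaks ended close together, at 437 to 566 bp. In Q111SST, with loxapine and with meclizine the broader peak came within 1 kb of a further internal start, that of Scn2a-202.

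Scn1a encodes Nav1.1, the channel on which fast-spiking inhibitory neurons depend and whose loss causes Dravet syndrome. It is on the minus strand at chr2:66270778-66440840 with 8 annotated starts, and 1 of them was marked, the internal start of Scn1a-203 at position 66410064. The outermost start, at 66440840, was 30418 bp from the nearest peak in Q7SST and 30666 bp in Q111SST. An annotated antisense non-coding gene, Gm13630, overlaps the marked start, and a peak on chromatin carries no strand, so the peak cannot be given to either gene. Its score was 141 (percentile 88.6) in Q7SST, 82 (72.4) in Q111SST, 144 (86.5) with meclizine, 107 (82.1) with loxapine, 86 (80.5) with cyproheptadine and 50 (53.5) with DKI. Q7SST lay 8.09 points above the median of the mutant-line lists and above each of them. The SD of those lists, which are different treatments and not replicates, was 13.1. As for Scn2a, the share of all genes with Q7SST outside their range is not given here. The peak was narrow, 265 to 589 bp in 5 lists, and 1172 bp in Q111SST, where it extended 1061 bp into the gene.

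The order of strength among the 3 marked genes was the same in each mutant-line list, with Scn2a highest, then Scn3a, then Scn1a. The ranges of Scn2a (96.3 to 98.7) and Scn3a (89.2 to 97.2) overlapped, and that of Scn1a (53.5 to 86.5) lay below both. In Q7SST Scn1a stood at 88.6, above Scn2a at 75.6, with no Scn3a peak. These orders hold for the score and not for the width of the peaks. Ranked by width, Scn3a (median percentile 81.6) stood above Scn2a (69.3) and Scn1a (21.3) in the mutant line, and Scn2a (49.2) above Scn1a (29.9) in Q7SST. Ttc21b, a cilium gene between Csrnp3 and Scn1a, was 1 of 3 neighbours marked in all 6 lists. Its percentile was 90.0 in Q7SST and 83.9 to 90.6 in the mutant line. The Ttc21b peak reached to both sides of the start in all 6 lists. The other 2 neighbours, Galnt3 and Cobll1, were lower in Q7SST than in every mutant-line list. The share of all genes with that order is not given here.

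**Figure D2:**
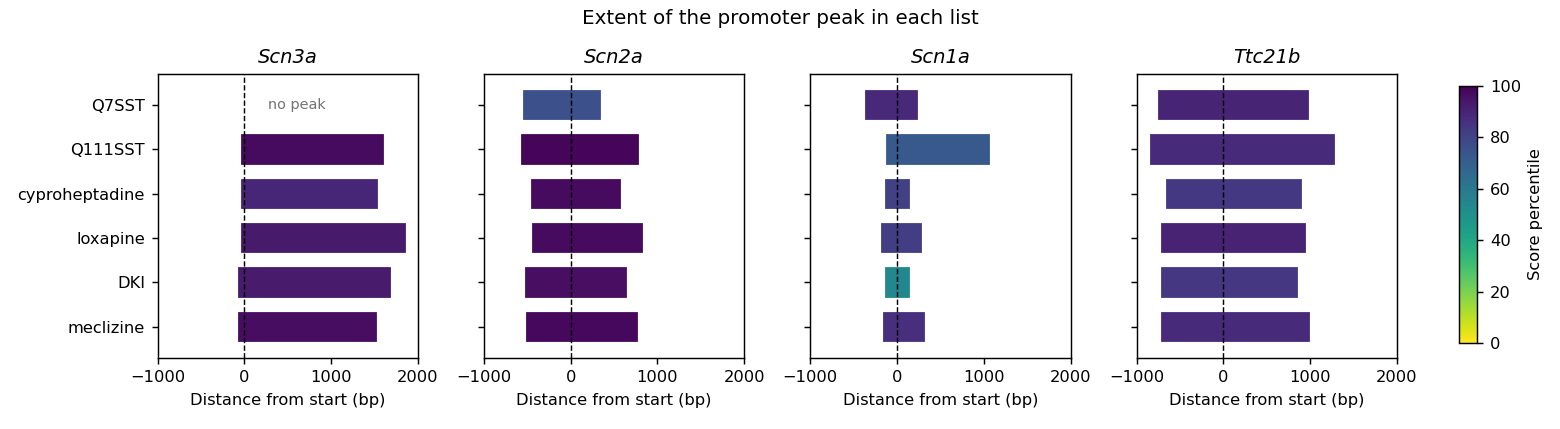
Extent of the promoter peak of Scn3a, Scn2a, Scn1a and Ttc21b in each of the 6 lists, in bp from the start of Scn3a-201, Scn2a-209, Scn1a-203 and the outermost Ttc21b start, with positive values inside the gene. Bars are peaks and their colour is the score percentile. Scn3a peaks lie almost wholly inside the gene, Scn2a and Ttc21b peaks span the start, and the Scn1a peak is narrow in every list but Q111SST.

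The upstream DNA of the internal Scn2a start that carried the mark is shown, since this start and not the outer one held the peak. Beside it stands the upstream DNA of Scn8a, which has the CpG-rich start typical of marked genes and had no peak. Each sequence is the 250 bases before the start, read 5′ to 3′ on the strand of the gene, with each CG dinucleotide in capitals. The Scn2a (chr2:65668436-65668685, plus strand) and Scn8a (chr15:100870395-100870644, plus strand) sequences are from RefSeq on GRCm38.p6, whose promoter table matched 8 of the 9 genes.
Scn2a upstream sequence: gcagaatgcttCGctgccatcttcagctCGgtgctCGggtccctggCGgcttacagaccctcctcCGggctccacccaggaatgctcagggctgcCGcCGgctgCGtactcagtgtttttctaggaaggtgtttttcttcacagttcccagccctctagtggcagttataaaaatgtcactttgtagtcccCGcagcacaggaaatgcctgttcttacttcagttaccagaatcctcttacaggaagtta
Scn8a upstream sequence: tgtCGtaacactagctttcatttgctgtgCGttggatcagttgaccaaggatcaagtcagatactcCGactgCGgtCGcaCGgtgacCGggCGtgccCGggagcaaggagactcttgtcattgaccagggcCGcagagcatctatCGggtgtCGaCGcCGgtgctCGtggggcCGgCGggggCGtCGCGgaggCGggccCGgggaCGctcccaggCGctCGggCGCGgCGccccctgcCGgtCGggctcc
There were 9 CG dinucleotides in the Scn2a stretch and 30 in that of Scn8a. The peak covered the whole Scn2a stretch in all 6 lists.

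CpG content was then set beside marking, because H3K4me3 usually follows CpG-rich promoters. The measure was the observed number of CG dinucleotides over the number that the C and G content would give, in the 1 kb on either side of a start. Over all protein-coding genes its median at the outermost start was 0.474, with 0.627 for genes marked in all 6 lists and 0.183 for genes marked in none. The marked starts of Scn3a had values of 0.131 (Scn3a-203), 0.325 (Scn3a-201) and 0.315 (Scn3a-202). Those of Scn2a marked in all 6 lists had 0.344 and 0.311, and the marked start of Scn1a had 0.355. All of these were below the median of all genes. That median is for outermost starts, whereas of these marked starts Scn3a-202 alone is the outermost of its gene. Among genes with values from 0.3 to 0.4 at the outermost start, 35.5% were marked in all 6 lists and 47.4% in none, counting a peak at any start.

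Scn8a, which encodes Nav1.6, the main channel of the mature axon initial segment and of nodes of Ranvier, was the exception on the other side. Its outermost start had a value of 0.796, and 7 further starts lay between 0.806 and 0.882. At a value of 0.6 or more there were 7436 protein-coding genes, of which 88.0% were marked in all 6 lists and 384 genes (5.16%) in none. Scn8a was among those 384. This place depends on the window, since with 500 bp on either side the value at the outermost start was 0.443, below 0.6, while that of Scn8a-201 was 1.03. The nearest peak to the main Scn8a start of Scn8a-201, at position 100870683 of chromosome 15, was 38916 bp away in Q7SST and 38542 bp away in Q111SST. The smallest distance from any of its 19 starts was 8736 to 9011 bp, so it was far outside the 1 kb limit in every list. Below 0.6, 53.4% of 14475 genes were marked in none, and the other 5 unmarked sodium channel genes all had values there, from 0.151 (Scn11a) to 0.404 (Scn10a) at the outermost start.

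**Figure D3:**
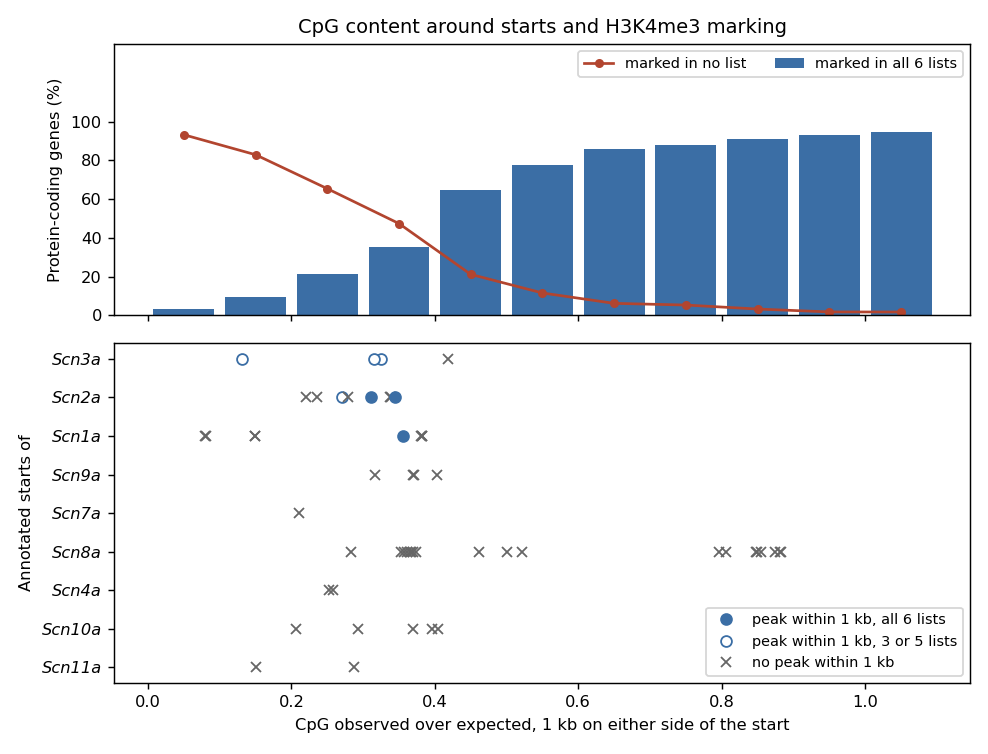
Upper panel, percent of protein-coding genes marked in all 6 lists (bars) and in no list (line) by CpG observed over expected within 1 kb of the outermost start, in bins of 0.1; the bin from 1.1 to 1.2, with 3 genes, is not drawn. Lower panel, the value at each annotated start of the 9 genes, as a filled circle for a peak within 1 kb in all 6 lists, an open circle for 3 or 5 lists and a cross for none. Scn8a starts reach 0.882 without a peak and every marked start lies below 0.4.

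Scn9a encodes Nav1.7, the channel of pain-sensing neurons. It was the gene closest to the 1 kb limit without passing it. A small peak lay 1255 bp from its start in Q111SST (score 30, percentile 35.4) and 1308 bp with meclizine (score 24, percentile 17.1). In the other 4 lists the nearest peak was 34629 to 34811 bp away. On the inner side of the limit stood the main peaks of Scn1a, Scn2a and Scn3a, each of which covered a start.

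The starts of the remaining unmarked genes were far from any peak. Scn7a encodes Nax, a sodium-level sensor of glia, and its nearest peak was 75444 bp (loxapine) to 187155 bp (cyproheptadine) from its single start. Scn4a, the channel of skeletal muscle, had its closest start 32563 bp from a peak in Q111SST, 33875 bp with loxapine and 75792 to 75998 bp in the other lists. Scn10a and Scn11a, neighbours on chromosome 9 that encode Nav1.8 and Nav1.9 of pain-sensing neurons, had their closest starts 21663 to 21772 bp and 68745 to 68919 bp away. In these genes no list stood apart by a peak at a start.

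REST is a repressor that binds a DNA element called RE1 and keeps neuronal genes silent in other cells and in progenitors, and Scn2a is the classic gene in which RE1 was found. The letters CAGCACC, then any 2 bases, then GGACAG were searched on both strands within 1 kb of each start. They were found exactly at a single place among the 9 genes, centred 798 bp upstream of the distal Scn2a start (chr2:65619966-65619980, plus strand), shown here with the fixed letters in capitals.
Scn2a RE1 letters: CAGCACCacGGACAG
The nearest peak in any list was 48140 bp from it. With 1 mismatch allowed, Scn3a held a match near its inner start of Scn3a-204.
Scn3a RE1 letters with 1 mismatch: CAGCACCagGGTCAG
That match (chr2:65497625-65497639, plus strand) was 13518 bp from the nearest peak. Over all protein-coding genes, within 1 kb of the outermost start, the exact letters occurred in 53 genes (0.242%), and with up to 1 mismatch among the 13 fixed letters in 315 genes (1.44%). Of 9 genes of the REST silencing machinery all 9 were marked in all 6 lists, as were 53.5% of all protein-coding genes. Rest itself was at percentile 96.5 in Q7SST, 99.2 in Q111SST, 97.1 with meclizine, 99.4 with loxapine, 98.8 with cyproheptadine and 96.4 with DKI.

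The chromosome 2 cluster spans 1327797 bp (chr2:65457118-66784914) and holds 5 of the 9 genes, in the order Scn3a, Scn2a, Scn1a, Scn9a and Scn7a, with Csrnp3, Galnt3 and Ttc21b between Scn2a and Scn1a. The cluster held 9 peaks in Q7SST, 23 in Q111SST, 23 with meclizine, 23 with loxapine, 21 with cyproheptadine and 18 with DKI. Q7SST thus had the fewest, although the DKI and cyproheptadine lists were shorter overall. Per Mb the cluster held 6.78 peaks in Q7SST, where chromosome 2 as a whole had 16.4. In Q111SST it held 17.3 per Mb against 17.2 for the chromosome. Base pairs covered came to 6147 in Q7SST, 20737 in Q111SST and 14067 to 20791 in the compound lists.

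The 500 kb before the cluster did not show this gap. It held 17 peaks in Q7SST, 16 in Q111SST and 13 to 15 in the compound lists. The 500 kb after it held 0 peaks in every list. Chromosome 2 took 7.79% of the peaks in Q7SST and 7.56% to 7.77% in the other lists. When each list was cut to its strongest 30758 peaks, the length of the shortest list, the cluster held 7 peaks in Q7SST and 15 to 19 in the others.

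Merging peaks that overlapped across lists gave 28 regions in the cluster. Of these, 8 were in all 6 lists, 10 were in all 5 mutant-line lists and absent from Q7SST, 4 were in 2 to 4 lists and 6 were in 1 list. Of the 18 cluster regions in all 5 mutant-line lists, 10 (55.6%) were absent from Q7SST, against 14.6% of 25176 such regions over the genome. The Scn3a starts account for 2 of the 10. Without those regions the count was 8 of 16, and outside the Scn3a gene altogether it was 5 of 12. Of the 23 regions that Q111SST held in the cluster, Q7SST shared 8, cyproheptadine 20, loxapine 21, DKI 18 and meclizine 22. Over the genome these lists shared 69.4%, 72.2%, 90.4%, 70.1% and 86.2% of the Q111SST regions.

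**Figure D4:**
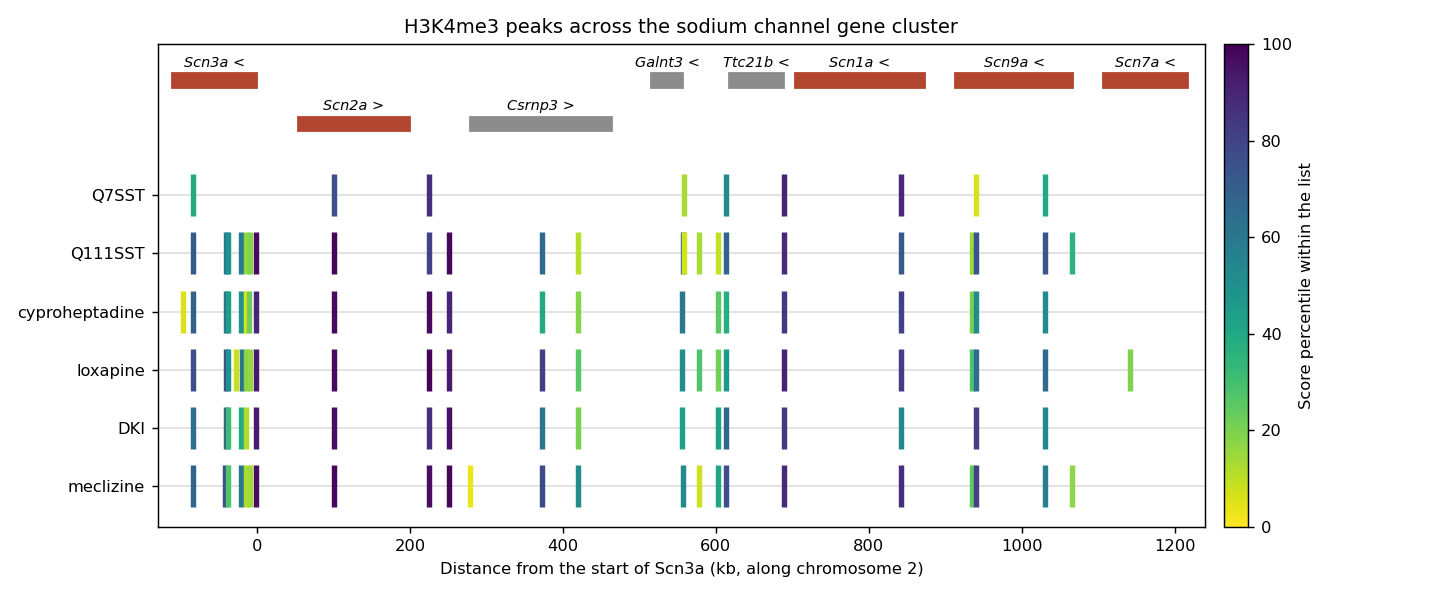
Map of the cluster, in kb from the start of Scn3a, with sodium channel genes in red and other coding genes in grey (arrowheads give the strand). Each vertical bar is 1 peak at its centre, not its width, coloured by score percentile, with 1 row per list. Q7SST holds 9 peaks where the others hold 18 to 23, and most of the bars it lacks lie inside Scn3a, between Scn2a and Csrnp3, and over Csrnp3.

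The Scn3a gene body held 9 of the 28 regions, and 1 of those 9 was in Q7SST. That shared region (chr2:65482800-65484107) overlaps a coding exon near the 3′ end of the gene, with percentile 38.9 in Q7SST and 64.1 to 76.4 in the other lists. Besides the starts, 3 regions inside Scn3a were in all 5 mutant-line lists and absent from Q7SST. The strongest of these (chr2:65525764-65527705) overlaps a coding exon, at percentiles 61.3 to 76.8. The other two were intronic, at percentiles 38.6 to 62.0 and 5.78 to 17.7. The mutant-line lists thus held separate peaks inside Scn3a besides the one at its outer start. The strongest of the 3 regions lay 1699 bp from the inner start of Scn3a-203.

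Outside the genes, the strongest region that Q7SST lacked lay between Scn2a and Csrnp3 (chr2:65818043-65819098), 26669 bp from the nearest annotated start. Its percentile was 97.7 in Q111SST, 98.2 with meclizine, 92.6 with loxapine, 89.2 with cyproheptadine and 95.7 with DKI, levels like those of the Scn3a promoter. Its CpG observed over expected of 0.589 was the highest of the 28 regions, whose median was 0.264. The central 250 bases (chr2:65818446-65818695, plus strand, GRCm38.p6) are shown with their 7 CG dinucleotides in capitals, because it matched a promoter peak in strength with no annotated start.
Intergenic region: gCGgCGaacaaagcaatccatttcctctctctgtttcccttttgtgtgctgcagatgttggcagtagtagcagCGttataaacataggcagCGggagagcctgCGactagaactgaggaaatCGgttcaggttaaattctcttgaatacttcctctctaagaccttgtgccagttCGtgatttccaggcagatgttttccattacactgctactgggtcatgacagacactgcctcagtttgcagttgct
A further intergenic region between the same genes was present in all 6 lists (chr2:65792084-65792772). Its percentile was 87.0 in Q7SST, 80.1 in Q111SST, 96.3 with meclizine, 99.4 with loxapine, 96.9 with cyproheptadine and 86.6 with DKI. There Q7SST lay within the range of the mutant line, unlike at the region shown above.

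Scn9a held 4 regions in its body and no marked start. A region over a coding exon (chr2:66507357-66508638), shared with the antisense non-coding gene Gm13629, was in all 6 lists, at percentile 6.14 in Q7SST, 73.2 in Q111SST, 80.9 with meclizine, 65.1 with loxapine, 52.5 with cyproheptadine and 81.8 with DKI. An intronic region (chr2:66596841-66598086) was at 40.1 in Q7SST and 52.5 to 73.2 in the others. Both were weaker in Q7SST than in any mutant-line list, but how often this holds for shared regions over the genome is not given here. The Scn7a body held 1 region, found with loxapine at percentile 19.4.

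The starts of the neighbours were compared in the same way. Ttc21b and Galnt3, the latter a glycosyltransferase gene, were marked in all 6 lists. At Galnt3 the Q7SST peak (percentile 13.2) lay upstream of the start and the strongest mutant-line peaks (43.0 to 64.6) inside the gene, with a further weak upstream peak in Q111SST (6.76), so 1 of the 10 regions absent from Q7SST belongs to a gene that Q7SST did mark. Csrnp3, which encodes a nuclear protein, was marked with meclizine alone, at percentile 3.04, and 2 intronic regions of it were in all 5 mutant-line lists and absent from Q7SST. Beyond Scn3a, Cobll1 was marked in all 6 lists, at percentile 80.4 in Q7SST and 94.5 to 98.0 in the mutant line, while Slc38a11 was unmarked. Past Scn7a, Gm21830 and Gm26727 were unmarked.

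The compounds changed no call among the 9 genes, since each of the 4 lists marked the same 3 genes as Q111SST. Over all protein-coding genes, marking differed from Q111SST for 1.82% with meclizine, 2.25% with loxapine, 3.63% with cyproheptadine and 3.15% with DKI. All 4 compounds were set against the same Q111SST list. The Scn3a and Scn2a percentiles were below the Q111SST value in each of the 4 compound lists, but these are ranks in lists of different length. The meclizine values lay closest to those of Q111SST, at 96.8 against 97.2 for Scn3a and 98.0 against 98.7 for Scn2a. Scn1a stood above its Q111SST value of 72.4 with cyproheptadine, loxapine and meclizine and below it with DKI. Of the cluster regions in Q111SST, DKI lacked an intronic region of Scn3a (chr2:65557529-65558440) and one of Scn9a (chr2:66501967-66502585) that the other 3 compounds held, both at percentiles of 14.0 to 27.4 where found.

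Genes whose products work with the alpha subunits were then counted, as a list of 20. Of these, 11 were marked in all 6 lists, 6 in none and 3 in some, close to the shares over all protein-coding genes (53.5% in all 6 and 37.0% in none). The beta subunit genes Scn2b, Scn3b and Scn4b were marked in none. Of 5 genes of membrane anchors, Ank2, Ank3, Sptbn1 and Sptbn4 were marked in all 6 lists and Nfasc in none. Ank3 encodes ankyrin-G, which holds sodium channels at the initial segment, and was at percentile 98.6 in Q7SST and 93.0 to 98.2 in the others. Both ubiquitin ligase genes, Nedd4 and Nedd4l, and all 5 adaptor genes were marked in all 6 lists. The leak channel gene Nalcn was marked in none.

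The fibroblast growth factor homologous factors bind the channel's intracellular tail and tune its inactivation. Fgf11 (percentile 61.9) and Fgf13 (49.1) were marked in Q7SST alone, as were 2.78% of all protein-coding genes. Fgf14 was marked in Q7SST (46.4), Q111SST (22.4) and with meclizine (20.2), and Fgf12 in none. Of this group of 4 genes, 3 were marked in Q7SST, 1 in Q111SST and with meclizine, and 0 with cyproheptadine, loxapine or DKI, where 55.4% to 59.9% of all protein-coding genes were marked in each list. The voltage-gated calcium channel alpha subunit genes, a related family of 10, were marked in all 6 lists for 4 genes (Cacna1a, Cacna1b, Cacna1c and Cacna1g) and in none for 5. Over all protein-coding genes these shares were 53.5% and 37.0%. Cacna1h, a T-type channel gene, was marked in Q7SST alone, at percentile 2.76. Cacna1a, which encodes the P/Q-type channel, was the strongest of this family in all 6 lists, at percentiles of 87.3 to 96.6.

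Markers of cell types were read in the same lists, because the sodium channel genes differ in the cells that use them. Over all protein-coding genes, 53.5% were marked in all 6 lists, 37.0% in none and 2.78% in Q7SST alone, and 55.4% to 59.9% were marked in any given list. Of 7 neural progenitor markers, 4 were marked in all 6 lists and 3 in some. Sox2 was absent from Q7SST alone. Nes was absent with cyproheptadine alone, at percentile 90.7 in Q7SST and 32.2 to 68.5 in the other 4 lists, and Pax6 was absent with cyproheptadine and DKI. Of 10 striatal markers, 5 were marked in all 6 lists, among them Dlx1 and Foxp1, while the dopamine receptor genes Drd1 and Drd2 were marked in none. Bcl11b and Gsx2 were marked in Q7SST alone. Of 6 mature neuron markers, Syt1, Tubb3 and Map2 were marked in all 6 lists, Rbfox3 and Snap25 in none, and Syp in Q7SST alone. All 3 fibroblast markers were marked in all 6 lists. Sensory neuron markers were marked for 3 of 4 genes in Q7SST, 0 in Q111SST and with cyproheptadine, 1 with loxapine and with DKI and 2 with meclizine. Astrocyte markers were marked for 3 of 5 genes in Q7SST and 3 or 4 in the others, with Gfap absent from Q7SST alone. At most 1 of 5 oligodendrocyte and 1 of 4 microglia markers was marked in any list, and endothelial and skeletal muscle markers in none. The part of such markers in the sodium channel differences was not tested.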

How the data were processed

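H3K4me3 ChIP-Seq was performed on 6 STHdh cultures after crosslinking and micrococcal nuclease digestion, with single-end reads. The submitters' processing notes name Trimmomatic 0.36, Bowtie2, SAMtools 1.3, MACS2 and mm10, without their order. The deposited values were peak positions with a whole-number score by the authors, from 10 to 1734, whose scale, thresholds and input control are not given in the sources used here. Treatment was described as triplicate, and whether replicates were pooled is not stated. Read depth was unknown, so scores were ranked within a list, except in the alternative that applied a single score threshold to all lists.

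Peaks were placed on GRCm38 (on 0 of 21 chromosomes did a peak pass the end) and compared with GENCODE release M21. Overlap was at least 1 bp. Groups came from the sample labels. The genes, gene lists and rules were chosen with earlier results of these data known. Named were the 9 genes, the coding genes between Scn3a and Scn7a and 2 on either side, list members whose marking differed between lists, and the 3 genes most like Scn3a. Other list members were named as examples after their values were seen. No test between conditions was possible with 1 list each. Alternatives were promoter windows of 0 or 5 kb, starts of coding transcripts alone, scores at or above the pooled median of 47, lists of equal size, merging within 1 kb, a span wider by 100 kb, other percentiles and a CpG window of 500 bp. A small number of list members and sequences are not reported here. The marking code was checked on simulated peaks. Python 3.11.15, numpy 2.4.6, pandas 2.3.3, pysam 0.24.0 and matplotlib 3.10.9 were used.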

Additional observations from a re-analysis of the deposited data

How the results depend on the processing

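No paired analysis was possible because the groups were single peak lists without replicate numbers. With a promoter window of 5 kb, Scn9a counted as marked in Q111SST and with meclizine, so that 2 genes marked in Q111SST were unmarked in Q7SST (Scn3a and Scn9a) and 1 (Scn9a) with cyproheptadine, loxapine and DKI. A window of 0 kb, or starts of coding transcripts alone, left all marking counts as reported.

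With scores at or above the pooled median, a single score applied to all lists, 5 cluster peaks remained in Q7SST, 14 in Q111SST, 15 with meclizine, 13 with loxapine, 12 with DKI and 9 with cyproheptadine. The cluster then had 15 regions, of which 4 were in all 6 lists, 4 in all mutant-line lists and absent from Q7SST, and 0 in Q7SST alone. With lists of equal size the loxapine list held 15 peaks in the cluster, and with those lists or with peaks merged within 1 kb, 0 regions were in Q7SST alone.

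Ranked among promoter peaks only, the median percentile over the mutant line was 87.4 for Scn3a, 94.2 for Scn2a and 59.9 for Scn1a, and Scn2a in Q7SST was at 51.3. Ranked by width, the medians were 81.6, 69.3 and 21.3, with Scn2a at 49.2 and Scn1a at 29.9 in Q7SST. By width Scn3a thus passed Scn2a in the mutant line and Scn2a passed Scn1a in Q7SST, so the order of the marked genes changed. The cause of these shifts was not tested. Of 147 values recomputed, 25 moved and 122 did not, where a count moved if it changed by over 1.5 times and a percentile if it changed by more than the SD over the mutant-line lists (3.28 for Scn3a, 0.954 for Scn2a and 13.1 for Scn1a). A CpG median was held to the SD over the starts.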
